A study of Mus musculus with 2 samples.

Results

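The 39 Hox genes of the mouse were examined in gastrocnemius, the large muscle of the calf, by total RNA sequencing. Members were the protein-coding genes whose symbol is Hoxa, Hoxb, Hoxc or Hoxd followed by a number, which gave 39 of 22028 protein-coding genes and of 55536 Ensembl genes in the deposited gene table. The rule used no levels, but it was set with earlier results of these data known. Both mice were males of the strain B6CASTF1/J, a first-generation hybrid of a C57BL/6J and a CAST/EiJ parent, aged 36 days, and no treatment is given in the labels. The labels number them as biological replicates 1 and 2 of 1 tissue, so there was 1 group with n = 2 and no contrast between conditions. Each replicate has a biosample and a mouse number of its own, but both carry the same donor entry, so the spread between them may be partly technical. Reads of both parental alleles were counted together against a reference of the C57BL/6J genome. The RNA was taken from whole muscle, in which fewer cells of a type and less RNA per cell cannot be told apart. With 1 group of 2 animals no p-value was computed, and values are given per animal and as mean ± SD (n = 2).

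Hox genes encode homeodomain transcription factors that give cells their position along the head-to-tail axis and along the limb. They lie in 4 clusters that arose by duplication, and genes at the same relative place in different clusters, called paralogs, carry the same number. Low numbers lie at the end of the cluster that is activated first and in the most anterior tissues, and the Hoxa and Hoxd genes of high number pattern the limb from shoulder or hip to digits. Connective tissue cells and muscle stem cells of adult limbs are known to keep part of this positional code. On mm10 the members lay on chromosome 6 for the 11 Hoxa genes and spanned chr11:96194316-96368256 for the 10 Hoxb genes, chr15:102921103-103036852 for the 9 Hoxc genes and chr2:74668310-74765142 for the 9 Hoxd genes. The Hoxa genes lie on the minus strand and the others on the plus strand.

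The libraries held 36952277 expected counts in replicate 1 and 38754338 in replicate 2, which are the reads that the authors' quantification assigned to genes. The members took 4097 of them in replicate 1 and 4908 in replicate 2. These were 111 CPM (counts scaled by library total, Wilson 95% interval 108 to 114) and 127 CPM (123 to 130), and the intervals cover counting error only. Muscle fibre markers summed to 66465 and 71884 TPM, the unit of all levels here, which is transcript abundance scaled by length and to the same total in each library. These levels are those of skeletal muscle, and the markers do not tell the gastrocnemius from other muscles. Markers of some other cell types differed between the animals. Fibroblast markers summed to 1737 and 901 TPM and Schwann cell markers to 362 and 79.4 TPM, with all 6 of 6 of each list lower in replicate 2.

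A minority of the Hox genes were detected in this muscle, and Hoxc10 was the highest in both animals. At 1 TPM or more in both animals, 11 of 39 members (28.2%) were detected, beside 45.6% of 22028 protein-coding genes. The count depended on the scale, with 18 after rescaling TPM over nuclear protein-coding genes and 7 at a threshold of 2 TPM. It was 14 in the second transcript table, described below. Another 2 members reached 1 TPM in replicate 1 alone, and 14 members had a mean below 0.1 TPM. All members together summed to 69.7 and 80.2 TPM in the 2 animals (74.9 ± 7.47), or 181.5 TPM on average after that rescaling. The median member had a mean of 0.485 TPM, beside 0.70 TPM for the median protein-coding gene. Hoxc10 alone held 38.3% ± 0.373 of the summed TPM, and Hoxc10, Hoxd8, Hoxa10 and Hoxd9 together held 70.5% ± 2.94. Over the 39 members the levels of the animals had a Spearman rank correlation of 0.961, which is across genes that share a library and a cluster.

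**Figure D1:**
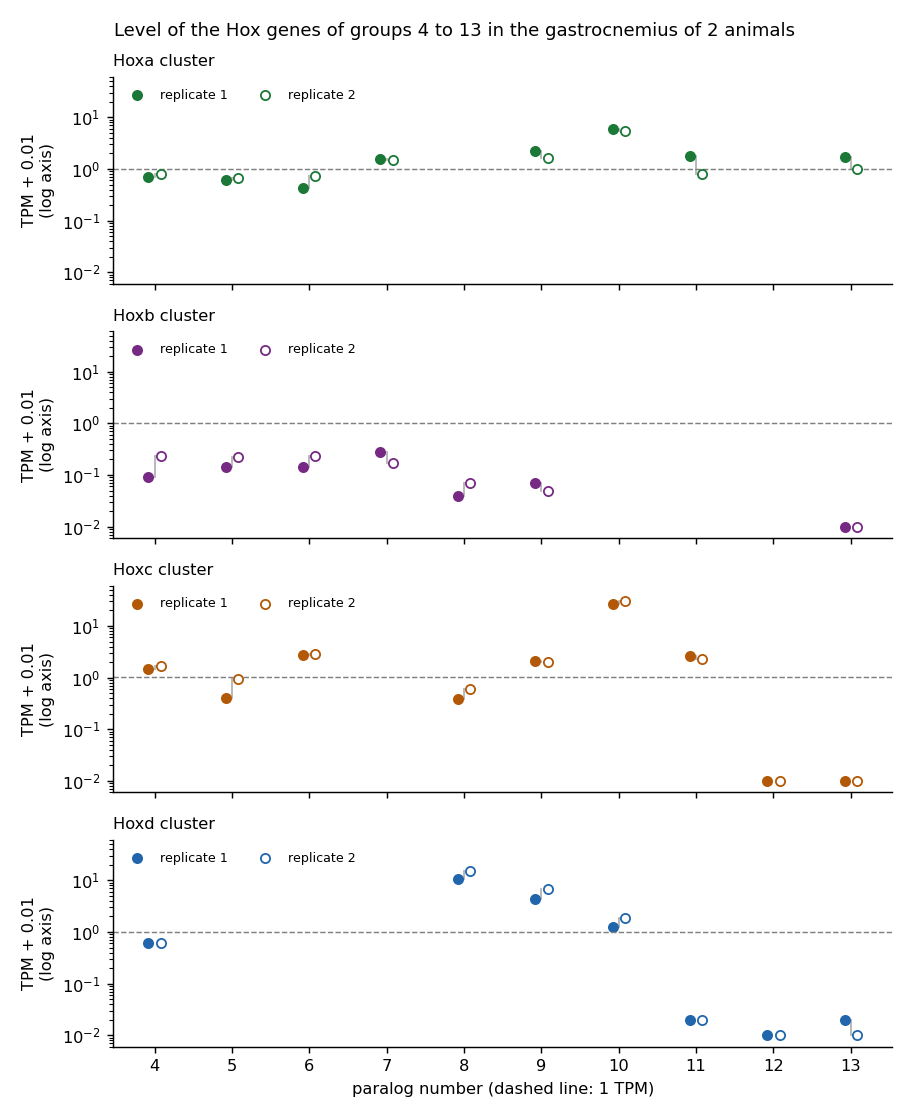
TPM of each of the 31 Hox genes of paralog groups 4 to 13 (log axis, with 0.01 added) by paralog number within each cluster, with a filled point for replicate 1 and an open point for replicate 2. Hoxc10 stands above all others at 26.8 and 30.5 TPM, the Hoxd genes fall off past Hoxd10, and no Hoxb gene reaches the line at 1 TPM.

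The Hoxc cluster carried 36.7 and 40.8 TPM, or 51.7% ± 1.28 of the total, and 5 of its 9 genes were detected. Hoxc10, a paralog group 10 gene known from the lumbosacral spinal cord and the hindlimb, was at 26.84 TPM in replicate 1 and 30.49 TPM in replicate 2 (28.7 ± 2.58). The animals were close, and this level was above that of 93.0% of protein-coding genes. Its neighbours on the chromosome were far lower in both animals. Hoxc11, on its 5′ side and also a hindlimb gene, was at 2.67 and 2.25 TPM, so that Hoxc10 was 10.1 times higher in replicate 1 and 13.6 times in replicate 2. Hoxc9, on its 3′ side and a gene of the thoracic trunk, was at 2.13 and 2.01 TPM, and Hoxc10 exceeded it by 12.6 and 15.2 times. The step on both sides of Hoxc10 was thus larger than the difference between the animals.

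Further along the cluster, Hoxc6 was at 2.79 and 2.84 TPM and Hoxc4 at 1.46 and 1.65 TPM. Both are best known from the neck and forelimb levels of the trunk, and both were detected in the 2 animals with little spread. The other 2 genes of this stretch were below 1 TPM, Hoxc8, between Hoxc9 and Hoxc6, at 0.38 and 0.59 TPM and Hoxc5, with its coding transcript between those of Hoxc6 and Hoxc4, at 0.39 and 0.94 TPM. The levels along the Hoxc genes therefore did not follow their order on the chromosome. At the far 5′ end, Hoxc12 and Hoxc13, the latter known from hair and nails, were listed at 0 in both animals. A count of 0 allows up to 3 counts, which is 0.102 TPM for Hoxc12 and 0.0402 TPM for Hoxc13 in replicate 1.

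The Hoxd cluster carried 16.7 and 24.8 TPM, or 27.4% ± 4.95, from 3 detected genes that adjoin each other. Hoxd8, a group 8 gene that lies between the genes of the trunk and those of the limb, was at 10.41 and 15.45 TPM (12.9 ± 3.56). Hoxd9 was at 4.37 and 6.76 TPM (5.57 ± 1.69), and Hoxd10, a gene of lumbar motor neurons and of the limb, was at 1.25 and 1.86 TPM (1.56 ± 0.431). The 3 levels fell from Hoxd8 to Hoxd10 in each animal. Hoxd8 was 2.38 and 2.29 times Hoxd9, and Hoxd9 was 3.50 and 3.63 times Hoxd10, so these ratios were alike in the animals although all 3 levels were higher in replicate 2.

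The fall continued past Hoxd10. Hoxd11, which helps to pattern the middle segment of the limb, was at 0.01 TPM in both animals from 1.16 and 1.00 counts. Hoxd12 had no count, and Hoxd13, the digit gene, had 1 count in replicate 1 and none in replicate 2. All 3 of these 5′ genes were within the 3 counts that a count of 0 allows. On the 3′ side, Hoxd4 was at 0.61 and 0.59 TPM, Hoxd3 at 0.00 and 0.13 TPM, and Hoxd1 had no count. Hoxd3 and Hoxd4 share 62.3% and 52.3% of their exonic bases with each other or with the gene model Gm28230 on the same strand, so the split of reads between them is uncertain. Hoxd8 and Hoxd9 share no exonic base with another gene.

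Since the Hoxd genes went from the second highest member to none within 1 cluster, the 250 bases before the RefSeq start of 4 of them (RefSeq on GRCm38.p6, plus strand, 5′ to 3′) are shown, with the CpG dinucleotides in capitals. The first 2 belong to detected genes and the other 2 to genes at or near 0:
Hoxd8, chr2:74704365-74704614: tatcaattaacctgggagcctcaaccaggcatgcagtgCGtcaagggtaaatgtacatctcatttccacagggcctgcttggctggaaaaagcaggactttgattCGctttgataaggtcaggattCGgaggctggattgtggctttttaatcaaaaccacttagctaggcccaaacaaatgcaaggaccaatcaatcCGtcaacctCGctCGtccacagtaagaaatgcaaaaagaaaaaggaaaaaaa
Hoxd10, chr2:74691641-74691890: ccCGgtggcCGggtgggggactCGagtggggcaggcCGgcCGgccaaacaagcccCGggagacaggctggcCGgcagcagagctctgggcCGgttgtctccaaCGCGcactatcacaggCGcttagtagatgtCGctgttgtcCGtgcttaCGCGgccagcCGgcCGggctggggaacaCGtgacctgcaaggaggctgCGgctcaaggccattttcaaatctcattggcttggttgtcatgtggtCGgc
Hoxd12, chr2:74674763-74675012: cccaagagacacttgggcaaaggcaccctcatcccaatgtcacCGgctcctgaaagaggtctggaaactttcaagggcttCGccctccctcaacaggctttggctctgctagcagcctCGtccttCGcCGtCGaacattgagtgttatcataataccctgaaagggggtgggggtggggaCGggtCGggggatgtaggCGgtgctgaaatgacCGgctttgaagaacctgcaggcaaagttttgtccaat
Hoxd13, chr2:74667975-74668224: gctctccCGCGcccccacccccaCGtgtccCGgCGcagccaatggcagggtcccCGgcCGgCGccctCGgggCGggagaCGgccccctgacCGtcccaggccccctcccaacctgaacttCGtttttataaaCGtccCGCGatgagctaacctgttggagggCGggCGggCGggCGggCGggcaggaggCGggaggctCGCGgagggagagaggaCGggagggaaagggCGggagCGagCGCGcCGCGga

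The Hoxd8 stretch held 6 CpG dinucleotides and that of Hoxd10 held 20, whereas the stretches of Hoxd12 and Hoxd13 held 10 and 31. CpG number did not separate the detected from the undetected genes in these 4. The RefSeq start used for Hoxd8 is that of the transcript Hoxd8-203 and lies upstream of 74704905, where the more abundant Hoxd8-201 starts. Over the 24 RefSeq promoters found for 22 members, the median was 12.5 CpG, against 6 over all 32851 RefSeq promoters of the same length. The median was 7.5 CpG over the 8 promoters of detected members and 13.5 over the 16 of other members, which was not tested. The TATA box letters TATAAA, searched on both strands, were in 4 of the 24 (16.7%) and in 12.4% of all promoters. A joint site of Hox and Pbx proteins, written TGATNNAT and searched on both strands, was also in 4 of the 24 (16.7%), and in 7.68% of all. It was in 0 of the 8 promoters of detected members and in 4 of the 16 of other members. The windows of Hoxa3 and Hoxc4 lay wholly within annotated exons. Promoters were found for 7 of the 11 detected members, and none for Hoxc6, Hoxc9, Hoxc11 or Hoxc10, the highest member. The values for detected members therefore leave these genes out. A match describes the letters in the window and not a bound site.

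The Hoxa cluster carried 15.5 and 13.5 TPM, or 19.5% ± 3.87, with 3 of 11 genes detected in both animals. Hoxa10, a group 10 gene of the hindlimb and the reproductive tract, was the highest at 6.02 and 5.50 TPM (5.76 ± 0.368). Hoxa9 was at 2.23 and 1.60 TPM, and Hoxa7, a trunk gene, at 1.57 and 1.49 TPM. Hoxa10 was thus 2.70 and 3.44 times its neighbour Hoxa9 in the 2 animals. In the order of levels over all clusters Hoxa10 stood next to Hoxd9, and the animals overlapped, with Hoxa10 the higher in replicate 1 and Hoxd9 in replicate 2.

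The 2 members nearest to the threshold from below were also Hoxa genes. Hoxa11, which patterns the middle segment of the limb and is known from limb muscle precursors, was at 1.79 and 0.80 TPM. Hoxa13, a gene of the hand and foot, was at 1.70 and 0.99 TPM, and in replicate 2 the authors' interval of 1.02 to 1.84 TPM did not hold its own TPM value. The second transcript table put both Hoxa11 and Hoxa13 above 1 TPM in each animal, at 2.69 and 1.29 TPM and at 3.36 and 1.89 TPM. Nearest from above in the gene table, by its lower animal, was Hoxd10 at 1.25 TPM. The 6 remaining genes lay below 1 TPM in both animals, with Hoxa4, a trunk gene, the highest at 0.68 and 0.80 TPM.

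The Hoxb cluster was nearly silent, with 0 of its 10 genes at 1 TPM in either animal. They summed to 0.82 and 1.18 TPM, which was 1.32% ± 0.208 of the total and came from 47 and 77 counts. The highest was Hoxb7, a trunk gene, at 0.27 and 0.16 TPM from 10 and 6 counts. The lowest were Hoxb1, a hindbrain gene, and Hoxb13, known from the prostate and the tail, both at 0 in both animals. Each of the other clusters therefore summed to at least 10 times the Hoxb level in each animal. Of the 6 members with no count in either animal, Hoxb, Hoxc and Hoxd each held 2 and Hoxa none.

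**Figure D2:**
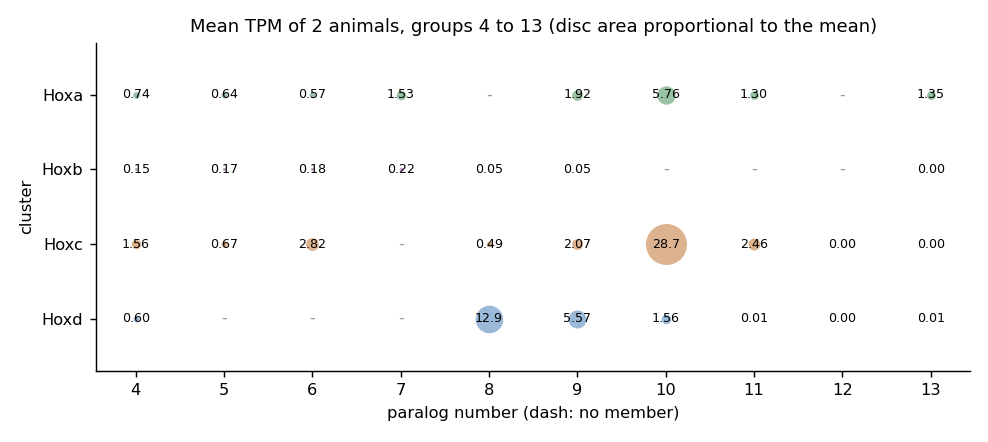
Mean TPM over the 2 animals for each Hox gene of paralog groups 4 to 13 by cluster (rows) and paralog number (columns), with the area of each disc in proportion to the mean and a dash where there is no gene. The largest discs are Hoxc10 (28.7 TPM) and Hoxd8 (12.9 TPM), and paralog group 10 is the only one with every gene above 1 TPM in both animals.

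Arranged by paralog number and summed over the clusters, most of the RNA came from groups 9 to 13, though not in each cluster. Groups 9 to 13, the posterior genes, held 67.8% ± 3.72 of the summed TPM with 7 of 16 genes detected, and Hoxc10 made up 56.5% of that. Groups 4 to 8, the genes of the trunk, held 30.9% ± 3.20 with 4 of 15 detected, and Hoxd8 made up 55.5% of that. Groups 1 to 3, the genes of the hindbrain and neck, held 1.26% ± 0.516 with 0 of 8 detected. The share of the posterior genes was 70.5% in replicate 1 and 65.2% in replicate 2. In the Hoxd cluster groups 4 to 8 summed to more than groups 9 to 13, at 13.5 and 7.1 TPM on average. The same held in Hoxb, at 0.755 and 0.05 TPM. Groups 9 to 13 summed to more in Hoxa (10.3 against 3.5 TPM) and Hoxc (33.2 against 5.5 TPM).

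The posterior share was itself concentrated in 1 paralog group. Group 10 held 48.1% ± 1.27 of all Hox TPM from Hoxa10, Hoxc10 and Hoxd10, and it was the only group in which all genes were detected. Within it Hoxc10 was 4.46 and 5.54 times Hoxa10 and 21.5 and 16.4 times Hoxd10. Group 9 held 12.8% ± 0.252, with Hoxa9, Hoxc9 and Hoxd9 detected and Hoxb9 at 0.06 and 0.04 TPM. Group 11 held 5.12% ± 1.84 and group 13 held 1.84% ± 0.863, of which Hoxa13 was 99.6%. Group 12, with Hoxc12 and Hoxd12, had no count in either animal.

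Group 8 held 17.8% ± 3.21, of which Hoxd8 was 96.1%. Hoxd8 was 27.4 and 26.2 times its paralog Hoxc8 in the 2 animals, and Hoxb8 was at 0.03 and 0.06 TPM. The 3 genes of group 8 thus differed by far more than the animals did. In group 4 only Hoxc4 was detected, in group 6 only Hoxc6 and in group 7 only Hoxa7. The members of groups 4 to 8 that were detected therefore came from 3 clusters and none from Hoxb.

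The transcript tables showed which isoforms carried these levels. Annotated protein-coding transcripts held 89.7% ± 1.70 of the member TPM in the first transcript table, and transcripts classed as processed, which have no annotated reading frame, held 9.38% ± 1.76. The 39 members have 87 transcripts. For 10 of the 11 detected members both transcript tables put the same transcript first by mean TPM, which is given in advance for the 4 with a single transcript. Hoxc10-201, Hoxc11-201, Hoxd9-201 and Hoxd10-201 are the only transcripts of their genes, and Hoxc9-201 held 100% of its gene. Hoxd8-201 held 80.0% of Hoxd8, Hoxa7-201 held 77.0% of Hoxa7, and Hoxc4-201 held 64.6% of Hoxc4, and all 3 were protein-coding. In the second transcript table they held 59.7%, 89.9% and 51.7%. There the protein-coding Hoxc4-202 led Hoxc4 in replicate 1, with 53.9%.

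Hoxa10 was the exception among the abundant genes. Its main transcript was Hoxa10-203, a processed transcript at chr6:52231199-52233324 on the minus strand, at 4.83 and 3.80 TPM, or 74.6% of the gene. Its protein-coding transcripts summed to 1.20 and 1.70 TPM (1.45 ± 0.354), so that Hoxa10 went from the third place by gene TPM to place 10 by coding TPM. In the second table the coding transcripts were at 3.58 and 3.65 TPM and in place 4, and Hoxa10-203 held 54.3%. The tables thus placed this transcript first alike but split the gene unequally.

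Non-coding transcripts also held 50.7% of Hoxc6 TPM (41.1% in the second table), although Hoxc6-201, which is protein-coding, was its first transcript in both. For Hoxa9 the non-coding share was 21.7% and 48.5%, and the tables differed on the first transcript by mean, Hoxa9-202 in one and Hoxa9-201 in the other. Both are protein-coding, but in replicate 2 of the second table the processed transcript Hoxa9-204 led with 39.6%. Counting coding transcripts alone left 11 members at 1 TPM in both animals. Hoxa11 coding TPM was 1.79 and 0.27, beside 1.79 and 0.80 TPM for the whole gene. In replicate 2 the first transcript table gave 0.53 TPM to the processed transcript Hoxa11-202, which had 0.00 in replicate 1. In the second table Hoxa11-202 was at 1.03 and 0.90 TPM. Hoxc5-202, a processed transcript that starts inside Hoxc10 and shares 166 exonic bases with it, was at 0.00 and 0.41 TPM, so the Hoxc5 value of replicate 2 was in part from that transcript.

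**Figure D3:**
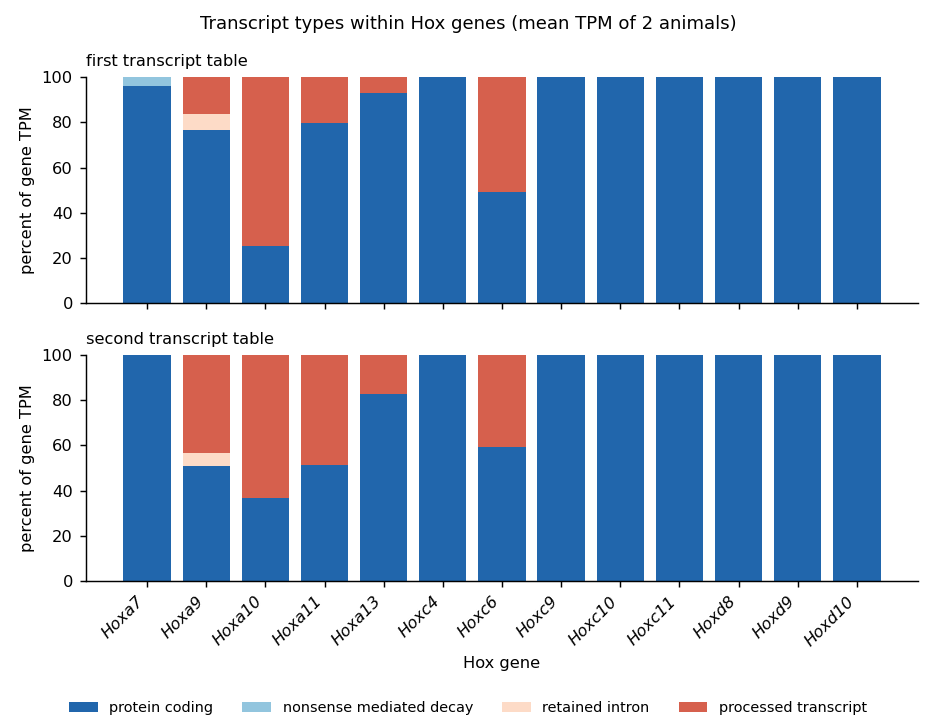
Percent of the mean TPM of each Hox gene in each annotated transcript type (colours), in the first (top) and the second (bottom) transcript table, for the 11 detected genes and the 2 detected in replicate 1 alone. Hoxc10 and Hoxd8 are protein-coding throughout, whereas most of Hoxa10 is in processed transcripts in both tables (74.6% and 62.9%, as means over the animals).

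The 2 animals were then compared gene by gene, on the scale of log2(TPM + 0.1) as replicate 2 over replicate 1. A difference was called where the mean expected count was at least 50, the levels differed at least 2-fold and the authors' credibility intervals, of a level that the labels and headers do not state, did not overlap. Of 13 members with enough counts, 1 passed, beside 2.21% of 11632 genes (1.76% lower and 0.447% higher in replicate 2). The gene was Hoxa11, at 1.79 and 0.80 TPM from 124 and 52 counts, a log2 ratio of -1.07. In the second table its ratio was -1.004, and with a pseudocount of 1 it no longer passed. The share of its exonic bases that overlaps the antisense gene Hoxa11os is 35.0%, and the labels and headers do not state whether counting used the strand.

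The intervals of 4 of the 13 did not overlap between the animals, beside 18.9% of the 11632 genes. These were Hoxa11 and, at under 2-fold, Hoxc10, Hoxd8 and Hoxd9. For Hoxd8 they were 9.02 to 11.9 TPM and 14.5 to 16.6 TPM. The intervals hold read assignment and counting only, and do not measure the spread among animals.

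Over the 19 members with a mean of at least 0.5 TPM, 8 were lower and 11 higher in replicate 2, with a median log2 ratio of 0.10 beside 0.00 over 13033 genes. Directions differed within clusters as well as between them, and no test of this was possible. The Hoxd genes Hoxd8, Hoxd9 and Hoxd10 had log2 ratios of 0.57, 0.62 and 0.54, all higher in replicate 2, and 0.26, 0.50 and 0.42 in the second table. The Hoxa genes Hoxa9, Hoxa10, Hoxa11 and Hoxa13 had ratios of -0.45, -0.13, -1.07 and -0.72, all lower in replicate 2. In the second table Hoxa9 was at 0.10, opposite in direction, and the other 3 were again lower. Toward the 3′ end of the same cluster, Hoxa3, Hoxa4, Hoxa5 and Hoxa6 were at 0.74, 0.21, 0.10 and 0.70, all higher in replicate 2, although Hoxa5 was at -0.02 in the second table. Each of Hoxa3 to Hoxa6 had a mean count under 50, and their intervals overlapped between the animals. Hoxd4 was at -0.04, slightly lower in replicate 2. Hoxc10 was at 0.18 in the gene table and 0.01 in the second table. Of the 19, 17 had the same direction in both tables, and Hoxa5 and Hoxa9 did not. Hoxc5 had the highest ratio, at 1.09 here and 1.30 in the other quantification, but its mean count was under 50, so it was not among the 13.

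**Figure D4:**
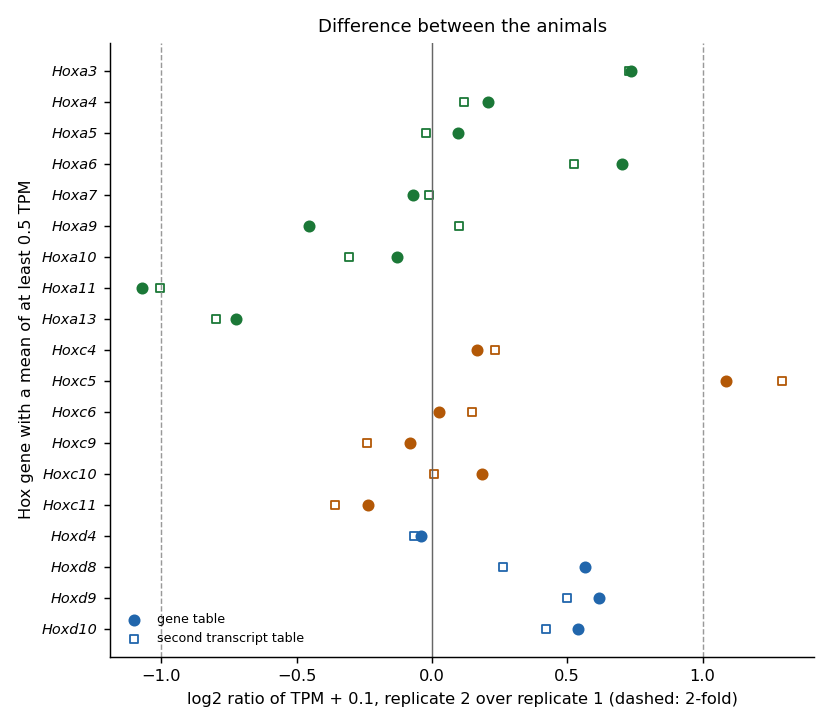
Log2 ratio of TPM + 0.1, replicate 2 over replicate 1, for each Hox gene with a mean of at least 0.5 TPM, in gene order by cluster, in the gene table and the second transcript table. Hoxd8 to Hoxd10 lie above 0 and Hoxa10 to Hoxa13 below 0 in both, and Hoxa11 and Hoxc5 lie past a 2-fold difference.

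Markers of several cell types moved between the same 2 animals. Besides the 6 fibroblast and 6 Schwann cell markers, all 5 tendon markers (138 and 94.6 TPM in sum) and all 4 macrophage markers (20.3 and 12.2 TPM) were lower in replicate 2, while all 4 adipocyte markers were higher (26.2 and 46.3 TPM). The 5 cartilage and bone markers summed to 3.80 and 1.75 TPM, of which Col2a1 was at 2.63 and 0.75 TPM. Past the criteria for a difference were 2 fibroblast, 2 tendon, 5 Schwann, 1 adipocyte and 1 cartilage and bone markers. In the animal with less fibroblast and Schwann marker RNA and more adipocyte marker RNA, 8 of the 19 members were lower and 11 higher. The part of these cells in the Hox differences was not tested. Endothelial markers summed to 40.7 and 42.2 TPM, with 2 of 4 lower, although Kdr among them was at 2.69 and 5.12 TPM. Satellite cell markers summed to 7.55 and 8.15 TPM, with Myf5 at 0.54 and 0.92 TPM. Of the 4 motor neuron markers Chat, Slc5a7 and Mnx1 were listed at 0 in both animals, and Isl1 was at 0.12 and 0.04 TPM. Of the 3 keratinocyte markers Krt5 and Krt14 were at 0, and Krt10 was at 1.46 and 1.40 TPM.

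The clusters also hold non-member genes. Of 46 inside the spans, 26 were long enough to be counted (effective length of at least 100 bases), 14 had a count and 2 had a mean of 0.5 TPM or more. Hoxd3os1, antisense RNA at chr2:74703248-74716130, was at 2.00 and 3.11 TPM, higher in replicate 2. Hoxa11os, antisense to Hoxa11 at chr6:52244393-52249799, was at 2.14 and 1.47 TPM, lower in replicate 2 as Hoxa11 was. Hotair, the highest in the Hoxc cluster and a long non-coding RNA between Hoxc11 and Hoxc12, was at 0.27 and 0.30 TPM, and Hoxb3os, the highest in the Hoxb cluster, at 0.05 and 0.03 TPM. These genes summed to 5.80 ± 0.247 TPM, far below the members.

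The clusters further encode the microRNAs miR-10 and miR-196, which are known to act on Hox messages. Their hairpins are too short for these libraries to measure, so only their sequences and the matching sites in the members are given. The mature forms (RefSeq, GRCm38.p6, 5′ to 3′) are shown with the seed, bases 2 to 8, in capitals, and the loci are those of the mature forms:
mmu-miR-10a-5p, chr11:96317186-96317208, plus strand: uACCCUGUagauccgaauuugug
mmu-miR-10b-5p, chr2:74726074-74726096, plus strand: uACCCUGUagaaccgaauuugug
mmu-miR-196a-5p, chr11:96265187-96265208 and chr15:102973365-102973386, plus strand: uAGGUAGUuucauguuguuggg
mmu-miR-196b-5p, chr6:52230129-52230150, minus strand: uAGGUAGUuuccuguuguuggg

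Each pair shares a seed. The match to the miR-196 seed, ACTACCT on the sense strand of the longest annotated 3′ UTR, was in 9 of 39 members (23.1%) and in 6.15% of 20832 protein-coding genes. The median UTR was of like length in both, 966 and 975 bases. Of these 9, Hoxa7 and Hoxa9 were detected in both animals, beside 11 of all 39 members (28.2%), and Hoxa7 held 4 matches. The match to the miR-10 seed, ACAGGGT, was in 4 of 39 members (10.3%) and in 12.6% of all genes. All 4 were below 1 TPM in both animals, where 28 of the 39 members were not detected. As examples, 2 of the 4 stretches in the detected gene Hoxa7 (GENCODE M21 on mm10, minus strand) have the match in capitals:
Hoxa7, chr6:52215211-52215231: actactagccctaaACTACCT
Hoxa7, chr6:52215232-52215252: aaaccatgatcaatACTACCT

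Hox proteins bind DNA together with homeodomain partners of the Pbx, Meis and Pknox (Prep) families, and 5 of 9 such genes were detected. Pknox2 was the highest at 13.2 and 12.6 TPM, and lower levels included Pbx2 at 5.35 and 4.91, Pknox1 at 2.96 and 2.91, and Pbx3 at 1.23 and 1.30 TPM. Below the threshold were Meis1 at 0.70 and 1.13, Meis3 at 0.77 and 0.59, Meis2 at 0.37 and 0.35, and Pbx4 at 0.04 and 0.05 TPM. None of the partners passed the criteria for a difference between the animals, beside 2.21% of 11632 genes.

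Of the genes known to hold Hox clusters silent, the Polycomb group, 22 of 27 were detected, from Rbbp7 at 31.8 and 29.9 TPM and Rbbp4 at 18.1 and 14.6 TPM down to Cbx2 at 0.26 and 0.32 TPM. Of the trithorax group and its demethylases, which keep them active, all 10 were detected, led by Dpy30 at 20.1 and 18.1 TPM and Kdm6b at 8.28 and 9.34 TPM, with Men1 lowest at 2.77 and 2.51 TPM. Retinoic acid sets Hox genes in the embryo, and 9 of 10 genes of that pathway were detected. They were led by Aldh1a1 at 36.3 and 32.4 TPM, a retinaldehyde dehydrogenase, and Rxra at 30.3 and 41.8 TPM, a nuclear receptor, with Crabp2 lowest at 0.27 and 0.15 TPM. None of the genes in these 3 lists passed the criteria for a difference between the animals, beside 2.21% of 11632 genes, so few were to be found.

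The related homeobox genes beside the clusters and in the ParaHox and Cdx groups were at or near 0. Of 8, 0 were detected, and only Evx1 was above 0, at 0.01 TPM in replicate 1. The genes that give a limb its fore or hind identity were also low. Tbx4, a hindlimb gene, was at 0.39 and 0.56 TPM, Pitx1, also a hindlimb gene, at 0.26 and 0.07 TPM, and Tbx5, the forelimb gene, at 0.06 and 0.00 TPM. Hoxc10 was therefore above each of these 3 in both animals.

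The second transcript table, which was made from the reads and an index rather than from alignments, gave nearly the same order of members. Across the 39 genes the Spearman rank correlation of the mean levels was 0.978, as a description over genes of the same libraries, and 9 of the 10 highest were shared. Hoxc10 was at 37.5 and 37.7 TPM there and Hoxd8 at 21.6 and 25.9 TPM. All members summed to 110.7 and 115.9 TPM there, so the share of Hoxc10 was lower than in the gene table in both animals. Values of the detected members were higher, by a median of 1.46 times for them and 1.47 times over protein-coding genes. Hoxb1, without a count in the gene table, had 12 and 2 estimated counts in the second table, or 0.268 and 0.0419 TPM.

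**Figure D5:**
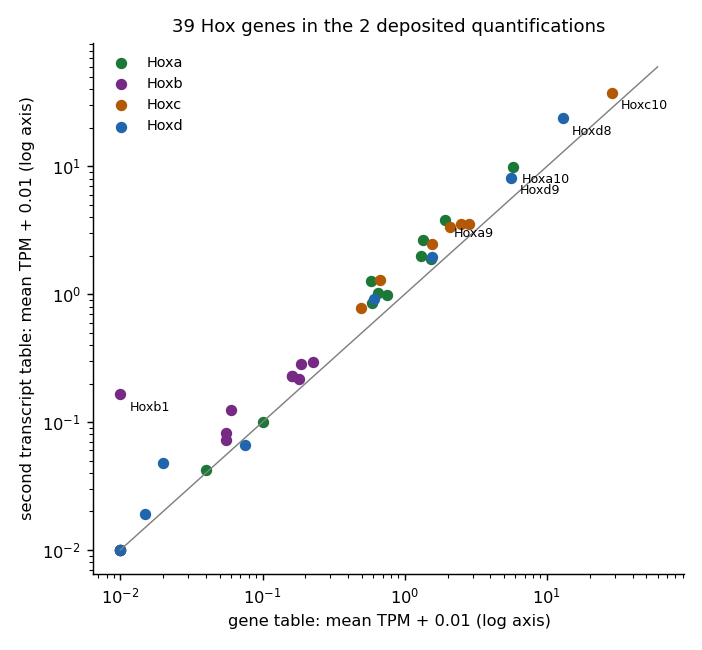
Mean TPM of each Hox gene over the 2 animals in the gene table (horizontal) and summed from the second transcript table (vertical), both on log axes with 0.01 added. The detected genes lie above the line of equality, by a median of 1.46 times, and their order is nearly kept.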

How the data were processed

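Total RNA of 2 gastrocnemius samples was analysed, with 3 tables for each library. Per the labels, 300 ng of RNA from a column kit was used, with ERCC spikes for stranded libraries reduced in ribosomal RNA. Per the file headers and deposited notes, gene levels and those of the first transcript table rest on transcriptome alignments (mm10, GENCODE M21), and the second transcript table on reads and an index. The sources used here do not give the aligner, the quantifiers, versions, the strand setting or the interval level. The authors deposited expected counts (estimated reads, not always whole), TPM over all listed features, FPKM, and TPM signal with the bounds of a credibility interval. A chi-square statistic of 35.1 per degree of freedom over 14978 genes exceeded sampling noise, so they were counted as 2 libraries. It cannot tell libraries of separate animals from separate libraries of the same animal.

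From the deposited TPM, log2 ratios with a pseudocount of 0.1, sums, shares, means and SD were computed here (Python 3.11.15, pandas 2.3.3, numpy 2.4.6, scipy 1.17.1, matplotlib 3.10.9). Detection was 1 TPM or more in both animals. RefSeq promoters, RefSeq miRNAs and M21 transcripts were searched for the letters given. The promoter sequences matched 22 members by symbol. Members and gene lists were chosen with earlier results of these data known. Detected members were named with both values, and of the rest those nearest to 1 TPM and the highest and lowest of each cluster. Partner genes were named, and of other lists the highest 2 and the lowest. Some values that this rule covers are not reported here. Other members were named after their values were seen. Alternatives were other thresholds, pseudocounts, scalings, units and the second table.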

Additional observations from a re-analysis of the deposited data

How the results depend on the processing

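Leaving out an animal gave 16 values of sums and shares, which with 2 animals lie within the SD by construction and show nothing about stability. Of 43 other alternative values, 25 stayed within the SD, within 1.5 times for counts or within 0.1 log2 for the median ratio, and 18 moved. The cause was not tested unless the alternative itself fixes it. Rescaling TPM over nuclear protein-coding genes gave 18 detected members, a summed member level of 181.5 TPM and 14.1 TPM for other genes in the clusters. A threshold of 2 TPM gave 7 detected members. The second table gave 113.3 TPM for the members, 8.67 TPM for the other genes and a Hoxc share of 46.4%. The other genes summed to 10.8 TPM by posterior mean and to 11.5 TPM without a length filter, chosen after seeing the data. With only members at 1 TPM or more, the shares were 13.9% for Hoxa, 0% for Hoxb, 56.4% for Hoxc and 72.0% for groups 9 to 13. With only protein-coding transcripts, chosen after seeing the data, they were 13.7% for Hoxa and 54.8% for Hoxc. Expected counts gave a Hoxc share of 49.0%, and only transcripts at 1 TPM or more a coding share of 92.6%. With a pseudocount of 1, 0 members passed the criteria for a difference between the animals. The Hoxd share ranged from 29.7% to 31.4% under the other alternatives. The median log2 ratio, 0.10 as reported, ranged from 0.02 to 0.10, and the tolerance was as large as the value itself, so it says little on stability. The second table holds no intervals, so the count of differences was not run on it, and ratios between the animals could not be had with 1 animal left out. Depth limited the members with under about 50 counts, which included all of the Hoxb genes.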
